A study of Homo sapiens with 4 samples.

Results

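The TGF-beta and BMP signalling genes described here are 10 genes. They are the ligands TGFB1, TGFB2, INHBA and BMP4, the receptors TGFBR1, TGFBR2 and TGFBR3, the signal carrier SMAD3, the inhibitory SMAD7 and the target ID1. Their members on the array were all probe sets annotated with a single gene symbol from that list, 24 probe sets of 10 genes among 19775 genes with such a probe set. The genes were chosen by name and role and not by their values, though earlier results of these data were known. The RNA came from 2 established human lung cancer lines, NCI-H358 (bronchioloalveolar carcinoma) and A549 (adenocarcinoma), each stably transduced either with a CHST11 vector or with an empty vector and kept under antibiotic selection. CHST11 is a Golgi sulfotransferase that sulfates chondroitin chains. The 4 groups were NCI-H358 CHST11, NCI-H358 empty vector, A549 CHST11 and A549 empty vector, with 1 Affymetrix array in each. All 4 cultures thus carried a vector, and the labels do not say whether a culture was a pool or a single clone, so untransduced cells are not part of any comparison.

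TGF-beta ligands are secreted in a latent form, and once freed they bind the type II receptor TGFBR2, which activates the type I receptor TGFBR1. The active receptor phosphorylates SMAD2 and SMAD3, which enter the nucleus with SMAD4 and change transcription, and the co-receptor TGFBR3 (betaglycan) presents ligand, TGF-beta 2 above all, to the signalling pair. BMPs signal through their own receptors to SMAD1, SMAD5 and SMAD9 and induce ID genes, while SMAD7 is an induced inhibitor of both branches. In epithelial and lung carcinoma cells the pathway is known for growth arrest and for mesenchymal change.

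The stretches upstream of the start of 4 members are shown. They set the members whose level differed most between the lines (TGFB1 and TGFBR3) beside TGFB2 and ID1. TGFB2 is the other TGF-beta ligand among the members with signal on the arrays, and ID1 is the BMP target. Each stretch is the 250 bases before the start in RefSeq's promoter entry for the gene, build GRCh38.p14, read 5′ to 3′ on the gene's strand. Capitals mark GGGCGG, the GC box, or TATAAA, the TATA box, on either strand, where neighbouring matches can overlap.
TGFB1, chr19:41353923-41354172, minus strand: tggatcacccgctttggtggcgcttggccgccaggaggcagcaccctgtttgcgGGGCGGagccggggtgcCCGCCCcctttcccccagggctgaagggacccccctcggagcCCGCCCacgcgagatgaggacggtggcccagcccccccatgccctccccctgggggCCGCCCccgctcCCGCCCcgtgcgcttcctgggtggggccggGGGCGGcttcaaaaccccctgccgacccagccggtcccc
TGFBR3, chr1:91886152-91886401, minus strand: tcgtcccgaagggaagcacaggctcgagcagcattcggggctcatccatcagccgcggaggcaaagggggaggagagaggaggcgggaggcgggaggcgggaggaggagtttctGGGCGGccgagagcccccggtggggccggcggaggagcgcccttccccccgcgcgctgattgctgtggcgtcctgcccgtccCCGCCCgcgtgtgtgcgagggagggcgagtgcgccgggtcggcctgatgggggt
TGFB2, chr1:218345086-218345335, plus strand: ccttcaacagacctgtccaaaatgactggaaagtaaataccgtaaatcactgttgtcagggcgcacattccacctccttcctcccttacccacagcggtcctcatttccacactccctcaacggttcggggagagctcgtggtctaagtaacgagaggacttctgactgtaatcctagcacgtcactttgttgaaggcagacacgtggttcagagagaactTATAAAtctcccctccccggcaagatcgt
ID1, chr20:31605039-31605288, plus strand: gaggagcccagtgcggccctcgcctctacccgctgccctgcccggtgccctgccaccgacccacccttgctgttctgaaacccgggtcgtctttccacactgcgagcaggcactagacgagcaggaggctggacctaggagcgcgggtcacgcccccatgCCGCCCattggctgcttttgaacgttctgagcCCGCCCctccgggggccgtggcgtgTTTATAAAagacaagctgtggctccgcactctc

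The TGFB1 stretch held 6 GC boxes and was 76.8% G or C, and the TGFBR3 stretch held 2 and was 73.6% G or C, where the median over 35116 RefSeq entries was 58.0%. TGFB2 (50.4% G or C) held 1 TATA box, beginning 29 bases before the start, and 0 GC boxes. ID1 held 2 GC boxes and overlapping TATA matches on the 2 strands at 33 and 31 bases before the start. Over all entries 42.6% held GGGCGG and 10.7% held TATAAA. The SMAD palindrome short of its last base (GTCTAGA, in 1.2% of all entries) was in 0 of the 26 entries of the 10 genes, the CAGA box (CCAGACA, 3.84%) in 1 and the GC-rich SMAD element (GGCGCC, 16.4%) in 3. Both strands were searched, and these matches describe the letters of the windows only.

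The arrays of a line were close to each other, with r = 0.9960 over the log2 intensities of all probe sets in NCI-H358 and 0.9961 in A549, and r lay between 0.9376 and 0.9387 across lines. The CHST11 probe set 219634_at was 4.80-fold higher with the CHST11 vector in NCI-H358 and 2.66-fold higher in A549, whereas the other 2 CHST11 probe sets lay between 0.897- and 1.10-fold. All 7 lung epithelial markers (EPCAM, CDH1, KRT7, KRT8, KRT18, KRT19 and CLDN4) reached the filter in NCI-H358 and 6 in A549, where CLDN4 was at 9.67 and 10.3. Between the lines 4 of the 7 were called higher in NCI-H358 and 3 lower (KRT7, KRT8 and KRT18). Of 6 alveolar and airway markers with a probe set, 4 reached the filter in NCI-H358 and 3 in A549. Among these, NKX2-1 had intensities of 264 and 247 in NCI-H358, against 6.39 and 5.62 in A549, and ABCA3 was called lower in NCI-H358. CDKN2A, which A549 cells are known to lack, had intensities of 804 and 668 in NCI-H358, against 23.9 and 18.4 in A549. Of the markers of other cell types, 1 of 6 for fibroblasts (COL1A1, 153 to 170 on the 4 arrays), 1 of 5 for endothelial cells and 2 of 5 for leukocytes reached the filter on any array, and their part in the results below was not tested. Genes with long mRNAs had a median log2 vector ratio of 0.13 in NCI-H358 and of -0.44 in A549, where 51 of 52 lay below 0. The 7 genes of the mitochondrial genome had a median of -0.14 in NCI-H358 and of 0.73 in A549. None of the 10 members was on either list, and the part of this shift in their A549 ratios was not tested.

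Intensities are the deposited values on a linear scale. A probe set was called measured in a line when either of its 2 arrays reached 27 (the 60th percentile), and values under 16.14 (the 50th percentile) were raised to that floor before log2 was taken. By this rule 15 member probe sets were measured in NCI-H358, 17 in A549 and 14 in both. The 6 left out everywhere lay between 3.12 and 13.2: all 3 of INHBA and 1 each of TGFB1, TGFB2 and TGFBR1. So 9 of the 10 genes had a measured probe set. A fold between the lines is given as at least that fold where a line was not measured, with its arrays raised to 27. With 1 array per group, a difference between vectors within a line has no test. As a gauge of array scatter, the SD of the log2 ratio among probe sets of the same gene was 0.17 in NCI-H358 and 0.16 in A549, which does not cover the spread between cultures.

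**Figure D1:**
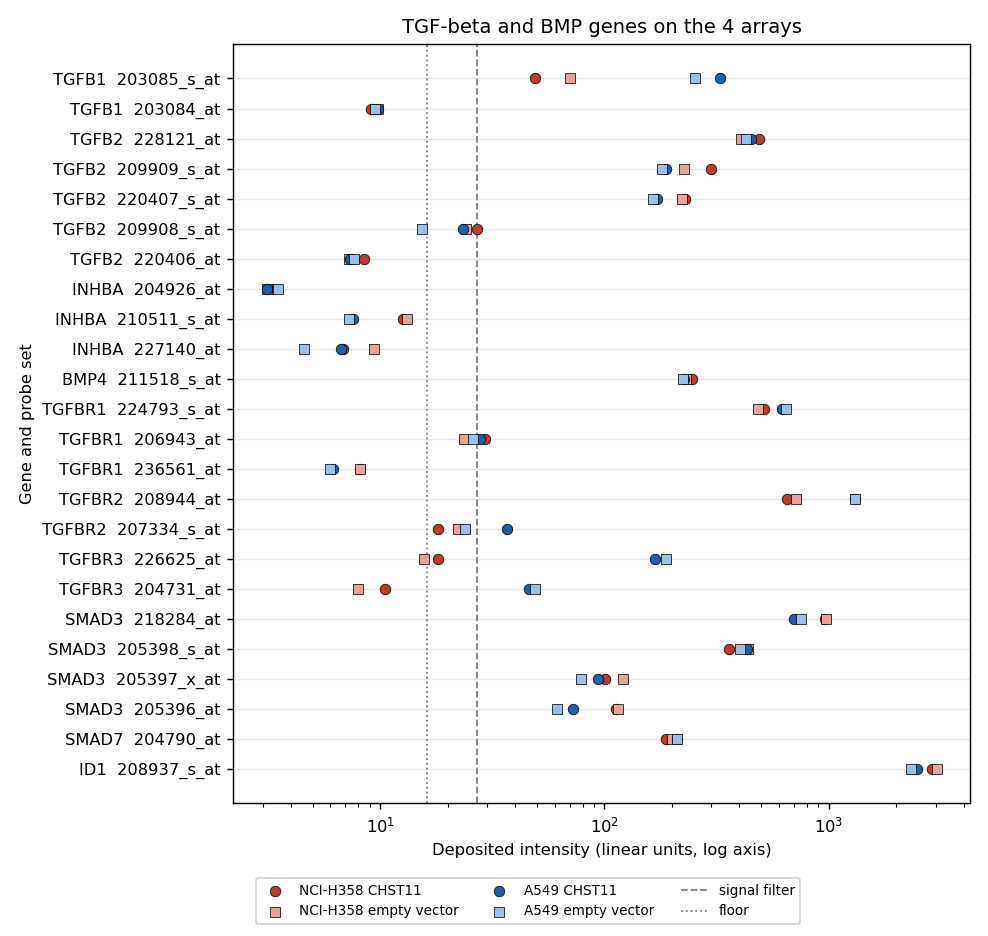
Deposited intensity (log axis) of all 24 member probe sets on the 4 arrays, 1 point per array, with the floor of 16.14 and the filter of 27 as vertical lines. TGFB1 203085_s_at, TGFBR2 208944_at and both TGFBR3 probe sets lie lower on both NCI-H358 arrays than on both A549 arrays, and all INHBA points lie left of the floor.

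Of the 4 member ligands, TGFB1, the gene for TGF-beta 1, had the widest difference between the lines. Its probe set 203085_s_at had intensities of 48.9 with CHST11 and 70.6 with the empty vector in NCI-H358, against 328 with CHST11 and 254 with the empty vector in A549. The lines did not overlap, and both NCI-H358 arrays were low. TGFB1 was 4.92-fold lower in NCI-H358, with a fitted log2 difference of -2.30 (SE 0.226, limma adjusted p = 0.00104 over 24457 probe sets). The arrays with CHST11 differed by log2 -2.75 and those with the empty vector by -1.85. The vector ratios of TGFB1 ran in opposite directions: the log2 ratio of CHST11 over empty vector was -0.53 (1.45-fold lower) in NCI-H358 and 0.36 (1.29-fold higher) in A549. Each was beyond the scatter gauge of its line and neither reached 1.5-fold. The other TGFB1 probe set, 203084_at, was under the floor on every array, so the gene rested on 1 probe set.

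TGFB2, the gene for TGF-beta 2, had signal in both lines. Its brightest probe set, 228121_at, read 492 with CHST11 and 407 with the empty vector in NCI-H358, against 452 with CHST11 and 428 with the empty vector in A549. These lines overlapped, with a fitted log2 difference of 0.02 (SE 0.106, limma adjusted p = 0.854). The probe set 209909_s_at read 299 with CHST11 and 228 with the empty vector in NCI-H358, against 189 and 181 in A549. There the lines did not overlap, and the fitted difference of 0.50 (SE 0.122) passed the test (limma adjusted p = 0.0199). The probe set 220407_s_at, at 230 and 222 in NCI-H358 against 171 and 165 in A549, also passed, with a log2 difference of 0.43 (limma adjusted p = 0.0147). The probe sets of TGFB2 therefore did not give the same size for the difference between the lines. The dim probe set 209908_s_at read 27.2 and 24.1 in NCI-H358 against 23.3 and 15.4 in A549, where it did not reach the filter. Its log2 difference of 0.40 passed as well (limma adjusted p = 0.0436). With A549 raised to 27, however, its fold of NCI-H358 over A549 was 0.948, so no difference is bounded for that probe set.

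For the vector comparison the TGFB2 probe sets measured in NCI-H358 had log2 ratios of 0.27, 0.39, 0.05 and 0.17, all above 0, and the 3 measured in A549 had 0.08, 0.07 and 0.06, also above 0. In NCI-H358 the first 2 were beyond the scatter gauge, and in A549 none was.

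INHBA encodes the beta A chain of activins, TGF-beta family ligands that signal through SMAD2 and SMAD3. Its 3 probe sets had intensities between 3.12 and 13.2 over the 4 arrays, under the floor, so no difference could be measured. BMP4, the ligand of the BMP branch, was nearly level: its probe set 211518_s_at read 245 with CHST11 and 232 with the empty vector in NCI-H358, against 227 with CHST11 and 225 with the empty vector in A549. Its log2 vector ratio was 0.08 in NCI-H358 and 0.01 in A549, and the fitted difference between lines was 0.08 (SE 0.0975, limma adjusted p = 0.511).

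Among the receptors, TGFBR3 stood furthest apart. The probe set 226625_at read 18.0 with CHST11 and 15.8 with the empty vector in NCI-H358, where it did not reach the filter, against 169 with CHST11 and 189 with the empty vector in A549. TGFBR3 was at least 6.62-fold lower in NCI-H358, with a fitted log2 difference of -3.39 (SE 0.121, limma adjusted p = 7.13e-05). The second probe set, 204731_at, at 10.5 and 7.97 in NCI-H358 against 46.0 and 49.0 in A549, was at least 1.76-fold lower in NCI-H358 (limma adjusted p = 0.000295). Betaglycan transcripts were thus near or under the floor in NCI-H358 by both probe sets. With CHST11 its log2 ratios in A549 were -0.16 and -0.09, the first just beyond the scatter gauge of 0.16.

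TGFBR2, the type II receptor that binds ligand first, was lower in NCI-H358 as well by its bright probe set. The probe set 208944_at read 649.5 with CHST11 and 712 with the empty vector in NCI-H358, against 1310 with CHST11 and 1306 with the empty vector in A549. The lines did not overlap, and TGFBR2 was 1.92-fold lower in NCI-H358 (log2 difference -0.94, SE 0.101, limma adjusted p = 0.00135). The log2 vector ratio of this probe set was -0.13 in NCI-H358 and 0.00 in A549. The dim probe set 207334_s_at read 18.1 with CHST11 and 22.3 with the empty vector in NCI-H358, under the filter. In A549 it read 36.7 with CHST11 and 23.9 with the empty vector. Its fitted log2 difference between the lines, -0.56, did not pass the test (limma adjusted p = 0.0914). Its A549 vector ratio, log2 0.62 or 1.54-fold higher, was the only member ratio of at least 1.5-fold, and the bright probe set of the same gene did not show it.

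TGFBR1, the type I receptor kinase, differed little. The probe set 224793_s_at read 514 with CHST11 and 483 with the empty vector in NCI-H358, against 620 with CHST11 and 646 with the empty vector in A549. TGFBR1 was 1.27-fold lower in NCI-H358 (log2 difference -0.34, SE 0.102, limma adjusted p = 0.0358). That call was lost in fits that left out NCI-H358 empty vector, A549 CHST11 or A549 empty vector (limma adjusted p = 0.0627 to 0.0884). The dim probe set 206943_at read 29.5 and 23.6 in NCI-H358 and 27.8 and 25.9 in A549, so that the lines overlapped and the fitted difference was -0.03. Its log2 vector ratio of 0.32 in NCI-H358 was beyond the gauge there, while 224793_s_at had 0.09, and in A549 the ratios were 0.10 and -0.06.

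SMAD3, the receptor-activated SMAD of the TGF-beta branch, had 4 measured probe sets. The brightest, 218284_at, read 962 with CHST11 and 971 with the empty vector in NCI-H358, against 701 with CHST11 and 751 with the empty vector in A549. It was 1.33-fold higher in NCI-H358 (log2 difference 0.41, SE 0.0982, limma adjusted p = 0.0181), a call lost without NCI-H358 CHST11 (limma adjusted p = 0.0582) or without NCI-H358 empty vector (0.061). The probe set 205396_at, at 113 and 116 in NCI-H358 against 72.3 and 61.5 in A549, was also called, with a log2 difference of 0.78. The remaining 2 were not: 205397_x_at had 0.37 (limma adjusted p = 0.0908) and 205398_s_at -0.07 (limma adjusted p = 0.649). The SMAD3 probe sets therefore differed among themselves in size and, for the last, in sign.

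With CHST11, the SMAD3 probe sets 205398_s_at and 205397_x_at had log2 ratios of -0.28 and -0.27 in NCI-H358, beyond the gauge, while 218284_at and 205396_at had -0.01 and -0.03. In A549 the 4 ratios were 0.11, 0.24, -0.10 and 0.23 in the same order, of which the second and the last were beyond the gauge.

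SMAD7, the inhibitory SMAD, stood level between lines and vectors. Its probe set 204790_at read 188 with CHST11 and 199 with the empty vector in NCI-H358, against 210 with CHST11 and 210 with the empty vector in A549. Its log2 vector ratios were -0.09 in NCI-H358 and 0.00 in A549, and the fitted difference between lines was -0.12 (SE 0.0982, limma adjusted p = 0.34).

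ID1, a BMP-induced inhibitor of basic helix-loop-helix factors, was the brightest member probe set on each array. 208937_s_at read 2882 with CHST11 and 3044 with the empty vector in NCI-H358, against 2476 with CHST11 and 2326 with the empty vector in A549. The lines did not overlap, but the log2 difference of 0.30 (SE 0.104) did not pass the test (limma adjusted p = 0.0544). It passed under 5 alternative settings, with limma adjusted p between 0.00502 and 0.0446. Under each normalization, each other floor and no filter it did not pass, with limma adjusted p between 0.052 and 0.357. With an array left out the log2 difference of ID1 was between 0.258 and 0.348. Its log2 vector ratios were -0.08 in NCI-H358 and 0.09 in A549, inside the scatter gauge of each line.

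**Figure D2:**
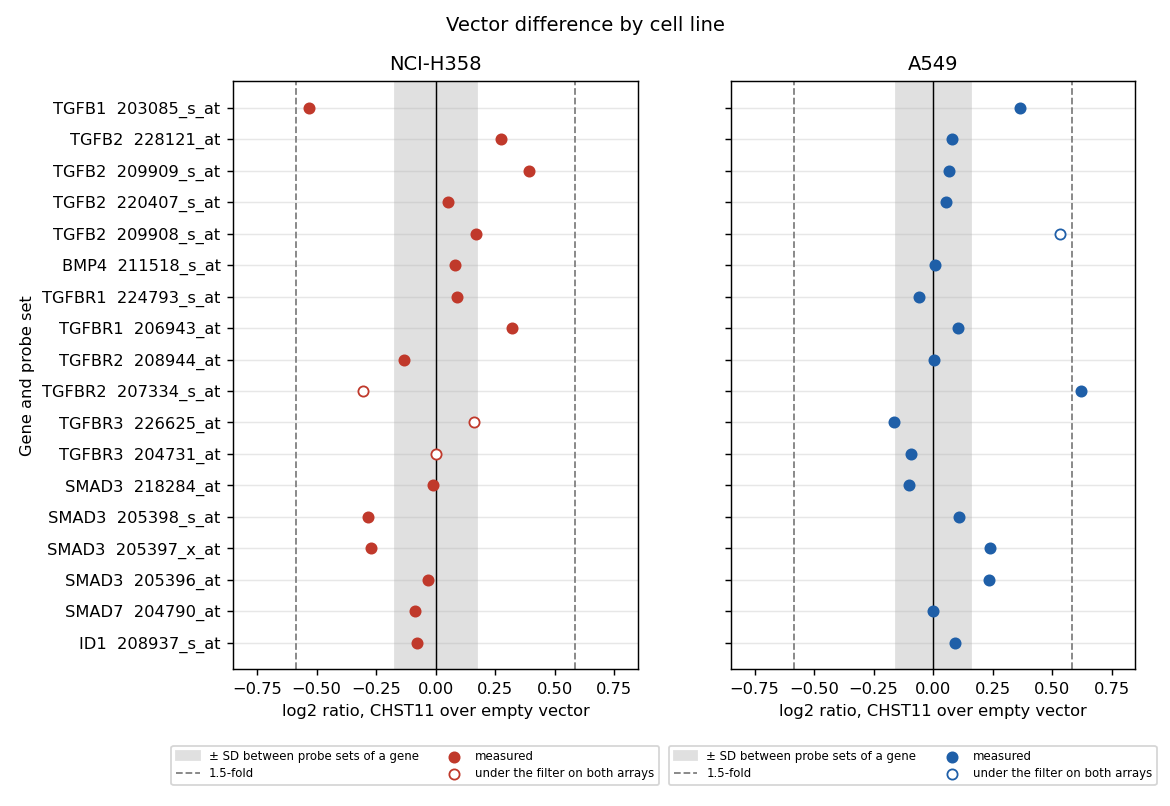
Log2 ratio of CHST11 over empty vector for the 18 member probe sets measured in at least 1 line, in NCI-H358 (left) and A549 (right), 1 point per probe set; grey bands are the SD between probe sets of a gene (0.17 and 0.16), dashed lines 1.5-fold, open points not measured in that line. Only TGFBR2 207334_s_at in A549 lies outside the dashed lines, and TGFB1 lies on opposite sides of 0 in the 2 lines.

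Over the members, the vector comparison gave few differences of size. In NCI-H358, 0 of 15 measured member probe sets were at least 1.5-fold apart, where 1.36% of all measured probe sets were. In A549 it was 1 of 17, the dim TGFBR2 probe set, where 1.3% of all were (0.58% higher). At 2-fold it was 0 in NCI-H358 (0.049% of all) and 0 in A549 (0.0981% of all). At 1.25-fold, a size added after the values were seen, 2 of 15 were apart in NCI-H358 (TGFB1 lower, TGFB2 209909_s_at higher), where 10.7% of all were, 7.32% higher and 3.38% lower, and 2 of 17 in A549 (TGFB1 and TGFBR2 207334_s_at, both higher), where 8.88% of all were, 4.65% higher. The median log2 ratio of the measured members was -0.01 in NCI-H358, against 0.01 over all measured probe sets, and 0.07 in A549, against 0.02. Beyond the scatter gauge lay 6 of 15 members in NCI-H358 (33.1% of all probe sets) and 5 of 17 in A549 (31.9% of all). Above 0 lay 7 of 15 members in NCI-H358 (51.4% of all) and 13 of 17 in A549 (55.7% of all), probe sets of 1 gene counted separately. With so few members, these counts set nothing apart from the background.

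With the 2 lines taken as repeats of the vector contrast, limma called 0 of 24457 probe sets at an adjusted p of 0.05 (0% of all), the 18 members included. The CHST11 probe set 219634_at was not called either, with a shared log2 difference of 1.84 (SE 0.216, limma unadjusted p = 0.000444). A fit that did not call CHST11 itself cannot show that a shared difference was absent in the members. At an unadjusted p under 0.05 limma listed 752 (3.07%), and with a variance trend 0 were called and 688 were listed. Among the members, 1 was listed at that unadjusted level, TGFB2 209908_s_at, with a shared log2 difference of 0.35 (SE 0.126), whose A549 arrays were both under the filter. TGFB1 had a shared log2 difference of -0.08 (SE 0.226), the mean of its opposite ratios.

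**Figure D3:**
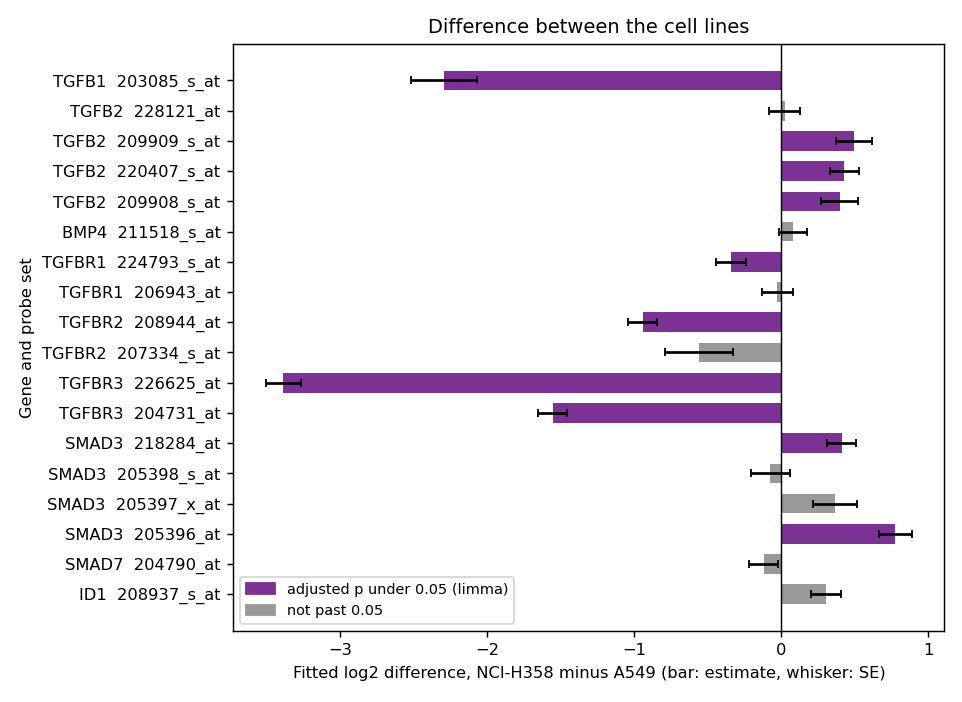
Fitted log2 difference, NCI-H358 minus A549, for the 18 member probe sets in the fit (bars: estimates, whiskers: SE; purple: limma adjusted p under 0.05). The longest bars are those of TGFBR3 226625_at (-3.39), TGFB1 203085_s_at (-2.30) and TGFBR3 204731_at (-1.55), all lower in NCI-H358.

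Between the lines limma called 10 of the 18 member probe sets, where it called 62% of all 24457, so the share of members was near the background. Higher in NCI-H358 were 5 (32.8% of all), 3 of TGFB2 and 2 of SMAD3. Lower were 5 (29.2% of all), 2 of TGFBR3 and 1 each of TGFB1, TGFBR1 and TGFBR2. Fewer members were called with an array left out, which leaves 1 array in a line. The share of all probe sets called in those fits is not given here. By size, 3 of the 18, TGFB1 and the TGFBR3 pair, were called with a fitted difference of at least 2-fold, lower in NCI-H358, where 11.4% of all were (22.9% in either direction), and 0 were called and at least 2-fold higher, where 11.5% of all were. The fitted values rest on the floor of 16.14, and with NCI-H358 raised to 27 the dimmer TGFBR3 probe set, 204731_at, had a bound of 1.76-fold only. For TGFB2 209908_s_at, with A549 raised to 27, the fold of NCI-H358 over A549 was 0.948, which bounds no difference. The median absolute log2 difference was 0.41 over the members and 0.48 over all probe sets in the fit. The fit holds a vector term, so its 1 residual degree of freedom is the disagreement of the lines over the vector, and these p-values say nothing of other cultures of the same lines.

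The other genes of the pathway were taken from 7 lists, 108 distinct genes, each represented by its brightest single-gene probe set. Of these, 84 were in the fit and 65 differed between the lines, 33 higher and 32 lower in NCI-H358, which is 77.4% where 63% of all genes in the fit did (33.1% higher and 29.9% lower). Fewer than 65 were called with an array left out, and the share of all genes called in those fits is not given here. The median log2 difference of the 84 genes was -0.01, against 0.03 over all genes. Both directions occurred in each list, and the genes named here are the 10 highest and 10 lowest of those called, with folds of the brightest probe set. In the vector comparison 0 of 72 measured genes were at least 1.5-fold apart in NCI-H358 (1.19% of all genes) and 0 of 77 in A549 (1.21%). Their median log2 vector ratio was 0.06 in NCI-H358 and -0.02 in A549.

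Among the ligands, 4 of 12 were higher and 4 lower in NCI-H358. BMP2, a BMP ligand, read 328 with CHST11 and 318 with the empty vector in NCI-H358, against 57.9 and 50.3 in A549, and was 5.99-fold higher in NCI-H358. GDF15, a stress-induced distant member of the family, read 52.4 and 75.1 in NCI-H358 against 620 and 476 in A549, and was 8.66-fold lower in NCI-H358. The BMP ligand genes BMP6 and BMP8B were not measured in NCI-H358 and were at least 2.46- and 2.70-fold lower there. BMP4 among the members, by contrast, was level between the lines.

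Among the receptors, 3 of 9 were higher and 3 lower in NCI-H358. The BMP type I receptor BMPR1B read 111 with CHST11 and 94.3 with the empty vector in NCI-H358, against 475 and 472 in A549, and was 4.63-fold lower in NCI-H358. Its other 2 probe sets in the fit also lay lower there.

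Of the SMADs and their regulators, 7 of 20 were higher and 8 lower in NCI-H358. SMURF2, a ubiquitin ligase that SMAD7 brings to the receptors, read 1207 with CHST11 and 1278 with the empty vector in NCI-H358, against 280 and 284 in A549, and was 4.40-fold higher in NCI-H358. All 4 SMURF2 probe sets were called in that direction, with log2 differences between 0.90 and 2.14.

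Of the genes of the latent complex and its activation, 4 of 10 were higher and 1 lower in NCI-H358. THBS1, thrombospondin 1, which can free latent TGF-beta, read 1170 with CHST11 and 862 with the empty vector in NCI-H358, against 293 and 343 in A549, and was 3.17-fold higher in NCI-H358.

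Of the extracellular antagonists, 2 of 7 were higher and 4 lower in NCI-H358. BAMBI, a decoy receptor without a kinase, read 7.21 with CHST11 and 9.04 with the empty vector in NCI-H358, under the floor, against 679 and 538 in A549, and was at least 22.4-fold lower in NCI-H358. FSTL1, a follistatin-like secreted protein, read 9.18 and 10.9 in NCI-H358 against 859 and 877 in A549, and was at least 32.2-fold lower in NCI-H358. FSTL3, which binds activins, was 3.74-fold lower there.

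Of the TGF-beta targets, 8 of 18 were higher and 8 lower in NCI-H358. SNAI2 encodes a transcriptional repressor that promotes mesenchymal change. It read 831 with CHST11 and 853 with the empty vector in NCI-H358 against 21.6 and 17.6 in A549. SNAI2 was thus at least 31.2-fold higher in NCI-H358. CDKN2B, the cell cycle inhibitor p15, was at least 7.49-fold higher in NCI-H358, in the arrays where its neighbour CDKN2A was high too. KLF11, JUNB and HMGA2, genes of transcription and chromatin factors, were 5.38-, 2.82- and 2.64-fold higher there. COL4A1, a basement membrane collagen chain, was at least 15.8-fold lower and TPM1, a tropomyosin, 4.10-fold lower. The other COL4A1 probe set, 211981_at, read 6.45 and 6.56 in NCI-H358 against 189 and 186 in A549. Its log2 difference was smaller in size, -3.54 against -4.48 for the brightest. The targets thus did not share a direction.

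Of the BMP targets, 5 of 10 were higher and 5 lower in NCI-H358. The brightest probe set of HEY1, a transcription factor gene, was not measured in A549 and was at least 6.46-fold higher in NCI-H358. Its other probe set, 218839_at, read 112 with CHST11 and 141 with the empty vector in NCI-H358 against 32.5 and 26.6 in A549, a smaller log2 difference of 2.10. ID4, a relative of ID1, was 2.99-fold higher in NCI-H358, while the homeobox gene MSX2 was at least 2.95-fold lower. The 20 pathway genes named from the lists had limma adjusted p between 2.31e-05 and 0.00139.

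**Figure D4:**
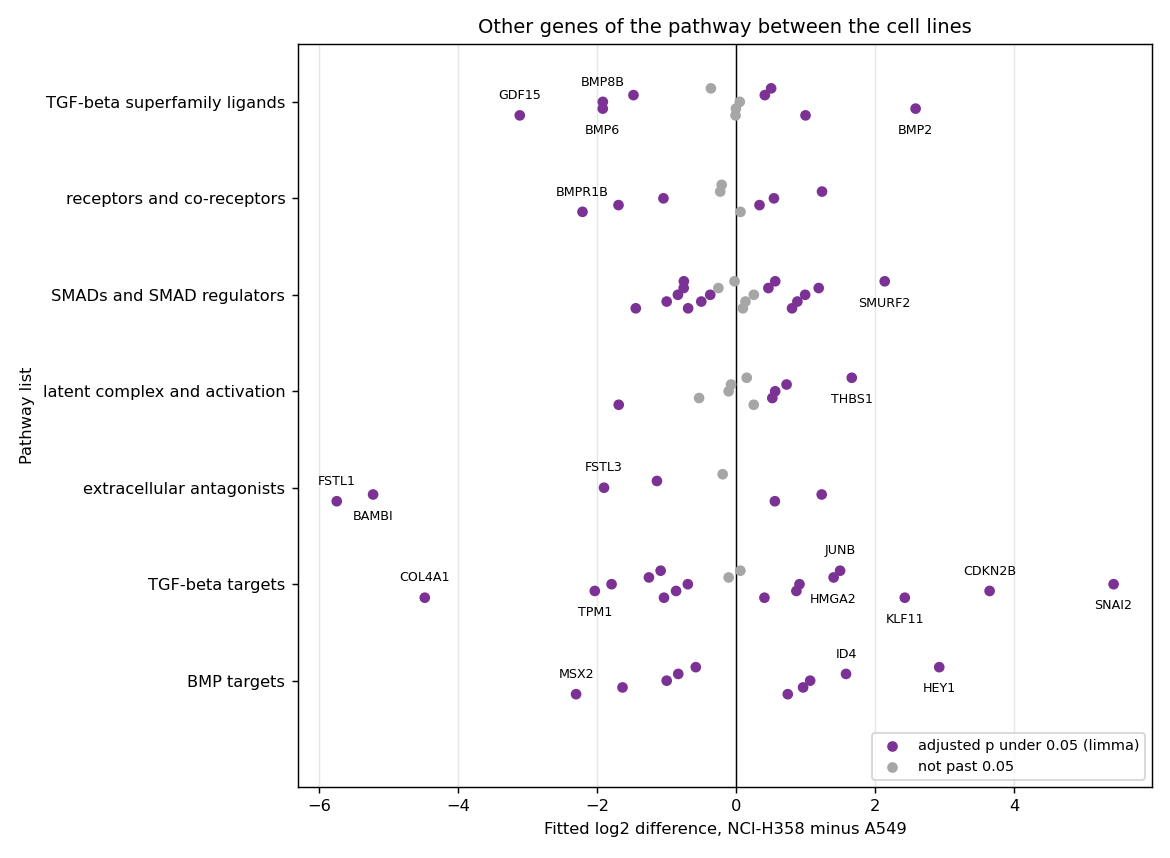
Fitted log2 difference, NCI-H358 minus A549, of 84 distinct pathway genes in the fit, by list, 1 point per gene (a gene on 2 lists is drawn in each), purple where limma's adjusted p was under 0.05 and grey otherwise. Points lie on both sides of 0 in each list, from FSTL1 (-5.75) to SNAI2 (5.43).

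Likeness of pattern was measured as the root mean square distance between centred log2 signals over the 4 arrays, for the 3 member genes with the widest range. TGFBR3 (range 3.55) was closest to COL11A1 and ASRGL1 among 12287 genes, at distances of 0.0617 and 0.0625. These signals had been raised to the floor where they lay under it. In NCI-H358, COL11A1 read 4.96 with CHST11 and 5.23 with the empty vector, and ASRGL1 read 11.6 and 15.8, all under the floor. The floor thus set the values of both genes in that line, and the distances cannot show that their levels there were like that of TGFBR3. TGFB1 (range 2.75) was closest to FGFR4 and C1orf115, at 0.113 and 0.12, and FGFR4 read 35.8 with CHST11 and 42.7 with the empty vector in NCI-H358 against 232 and 162 in A549. TGFBR2 (range 1.01) was closest to INTS10 and CDC16, at 0.0114 and 0.0166. With 4 arrays from 2 lines these distances mostly follow the difference between the lines.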

How the data were processed

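RNA of 4 cultures was measured on 1-colour Affymetrix arrays with 54675 probe sets, 1 array per group, and the number of arrays limits the precision. The authors deposited each probe set's intensity, linear and unlogged. MAS5 is named per the submitters' processing notes. Its version, its scaling target and any later normalization were not given in the sources used here, and the 75th percentiles of the arrays lay close together, from 85.21 to 88.18.

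A single gene was annotated to 41091 probe sets, more than 1 to 1801 and no gene to 11721, and 62 controls were dropped. RefSeq records were found for 99.9% of those with a single gene, and 0 symbols changed. Intensities were floored at 16.14 before log2. The limma model (version 3.58.1, R 4.3.3) held the line and the vector, with lmFit, eBayes and Benjamini-Hochberg adjustment over the 24457 probe sets that reached 27 on any array, and had 1 residual and 3.82 prior degrees of freedom. Its code was tested on simulated data. The p-values cover only the spread between these arrays, which may be technical. Upstream sequences came from RefSeq tables of GRCh38.p14, and the TATA and GC boxes were added to the motifs after the sequences were seen. Members, lists and tests were chosen with earlier results of these data known. The text names all members, the 10 highest and 10 lowest called pathway genes between the lines, pathway genes at least 1.5-fold apart between vectors, and, beside them, CHST11, markers and the 2 genes closest in pattern. List genes that lack a probe set of their own were not analysed here. Alternatives were 3 normalizations, other floors, filters and fold sizes, 1 value per gene, a variance trend, no vector term and each array left out. The remaining steps ran in Python 3.11.15 (NumPy 2.4.6 and pandas 2.3.3), and matplotlib 3.10.9 drew the figures.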

Additional observations from a re-analysis of the deposited data

Results flagged for a closer look

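The log2 ratio of CHST11 over empty vector was beyond the scatter gauge in both lines, in opposite directions, for 2 of 14 member probe sets measured in both lines and for 6 of 65 other pathway genes by their brightest probe set. Over all probe sets measured in both lines this held for 6.6%, and for 17 of the 50 genes with long mRNAs. With 1 array per group, the difference between the lines in their vector ratio was not tested, and the genes BMPR2, LTBP1, CCN2 and FN1 are named after their values were seen. For TGFB1 203085_s_at the ratio was -0.53 in NCI-H358 and 0.36 in A549, a difference of -0.90. SMAD3 205397_x_at had -0.27 in NCI-H358 and 0.24 in A549, a difference of -0.51, which the brightest SMAD3 probe set, at -0.01 and -0.10, did not share.

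Among the other pathway genes, the ligand gene GDF15 had -0.52 in NCI-H358 and 0.38 in A549, a difference of -0.90. The BMP type II receptor gene BMPR2 had 0.25 in NCI-H358 and -0.32 in A549, a difference of 0.57. LTBP1, a latent TGF-beta binding protein gene, had 0.36 in NCI-H358 and -0.25 in A549, a difference of 0.61. For the TGF-beta targets, CCN2 had 0.21 in NCI-H358 and -0.18 in A549, a difference of 0.39, and FN1, the fibronectin gene, had 0.21 in NCI-H358 and -0.39 in A549, a difference of 0.60. THBS1 201110_s_at had 0.44 in NCI-H358 and -0.23 in A549, a difference of 0.67. The dimmer THBS1 probe set 235086_at had 0.31 in NCI-H358 and -0.46 in A549, a difference of 0.77, whereas the 4 THBS1 probe sets ran from 0.22 to 0.44 in NCI-H358 and from -0.46 to 0.47 in A549. HEY1 218839_at, not the brightest HEY1 probe set, had -0.32 in NCI-H358 and 0.29 in A549, a difference of -0.61.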

How the results depend on the processing

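No paired analysis by replicate number was possible because each group has 1 array and so 1 replicate number. The arrays were paired by cell line only: the shared vector difference is the contrast within cell lines, from the fit with a term for the line. The count of member probe sets at least 1.5-fold apart in A549 (1) was 0 with the filter at the 75th percentile, with 1 probe set per gene, with the median of probe sets and at 2-fold, and 2 at 1.25-fold; in NCI-H358 (0) it was 2 at 1.25-fold and 0 otherwise. The shared vector difference kept 0 member calls under each alternative run. The main fit did not call CHST11 219634_at either, so these counts do not show that a shared difference was absent. Between the lines, 10 of 18 member probe sets were called. Median centring gave 9 of 17 and the stricter filter 9 of 14. Under the other normalizations and each floor, trend or vector setting, 9 or 10 of 18 were called. The share of all probe sets called under these settings is not given here. The count was 6 of 9 with 1 probe set per gene, 5 of 9 with the median of probe sets, 3 with a 2-fold size added after seeing the data, 6 to 7 with an array left out, and 1 of 24 with no filter, where 24472 of 54613 probe sets sat at the floor on all arrays and 532 were called in all. With the median of probe sets TGFB2 was called (log2 0.43) and TGFBR1 (-0.03) and SMAD3 (0.19) were not. The count of pathway genes called between the lines (65) was 2 with no filter. It was lower than 65 with an array left out, where the share of all genes called is not given. Under the other alternatives it was 57 to 67. Signals under the floor limit what can be said of INHBA and of TGFBR3 in NCI-H358.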
